A study of Rattus norvegicus with 17 samples.

Results

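Ccl2, Ccl5 and Cxcl10 encode chemokines, small secreted proteins that draw leukocytes out of the blood and into tissue. These 3 genes were taken by their Ensembl rat IDs (ENSRNOG00000007159, ENSRNOG00000010906 and ENSRNOG00000022256) from a table of 32753 genes. The selection is by ID and sets no threshold on any value, but it was made with earlier results of these data known. All 3 passed the filter on low counts, which left 15000 genes for testing. The names came with the IDs, since neither the count table nor the RefSeq gene table used here pairs Ensembl IDs with symbols.

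The libraries hold RNA from lung parenchyma of rats of the outbred Wistar stock RjHan:WI. Bleomycin is a cytotoxic antibiotic that injures rodent lungs and leads to fibrosis, and the title of the series calls BI1015550 a PDE4B inhibitor. The 6 control libraries came from rats given NaCl and 5 libraries from rats given bleomycin (1 mg per kg). Another 6 came from rats given the same dose of bleomycin and BI1015550 (2.5 mg per kg), called treated from here on. Libraries are named by group and title number: 1 to 6 in controls, 7, 8, 9, 11 and 12 with bleomycin, and 13 to 18 in treated lungs. Age, sex, time after injury and the route and schedule of dosing are not stated in the labels used here. Whether each library came from its own animal is not stated either, so p-values measure the spread between libraries.

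CCL2 is the main ligand of CCR2 and brings classical monocytes into injured tissue, where they can become macrophages. CCL5, made by T cells and NK cells among others, attracts T cells, monocytes and eosinophils. CXCL10 is induced by interferons and attracts activated T cells and NK cells through CXCR3. PDE4B degrades cyclic AMP, a second messenger that restrains the release of inflammatory mediators from leukocytes.

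Each library held 14609389 to 18462105 counts. Levels are given as CPM, counts scaled to library size after trimmed mean of M values (TMM) scaling. On the first principal component of all tested genes, which held 35.8% of the variance, bleomycin library 7 lay farthest from the controls (68.17) and treated libraries 13 and 17 lay nearest to them among treated libraries (-13.39 and -11.57). Bleomycin library 7 also stood far above the rest of its group, by Dixon's gap criterion, for 312 of the 15000 tested genes (2.08%), against 0.36% to 1.45% for the other bleomycin libraries. Results below are therefore given without it where it changes them.

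The chemokines did not move as a block. With bleomycin, Ccl2 and Cxcl10 rose and Ccl5 fell (edgeR quasi-likelihood test, Benjamini-Hochberg adjusted over all tested genes). In treated lungs Ccl2 was lower than with bleomycin and not distinguishable from control, Cxcl10 was lower by a margin that depended on single libraries, and Ccl5 lay between the other groups. All 3 genes were called with bleomycin against control, where 38.3% of all tested genes were called (20.2% higher and 18% lower). Of the 3, 2 were called in treated against bleomycin, where 27.8% of genes were called (15.7% lower), and 0 in treated against control, where 8.39% were called. In that last comparison 1 of the 3, Ccl5, had an unadjusted edgeR p below 0.05, and DESeq2 called 1 (Ccl5) and limma voom 0. Such results were common there. The edgeR p of Ccl5, 0.00978, ranked 1799 among all tested genes from the smallest. Over all genes DESeq2 called 1812 and limma voom 2546. The median log2 fold change over all tested genes was -0.0072, -0.0032 and 0.0041 in the same order.

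**Figure D1:**
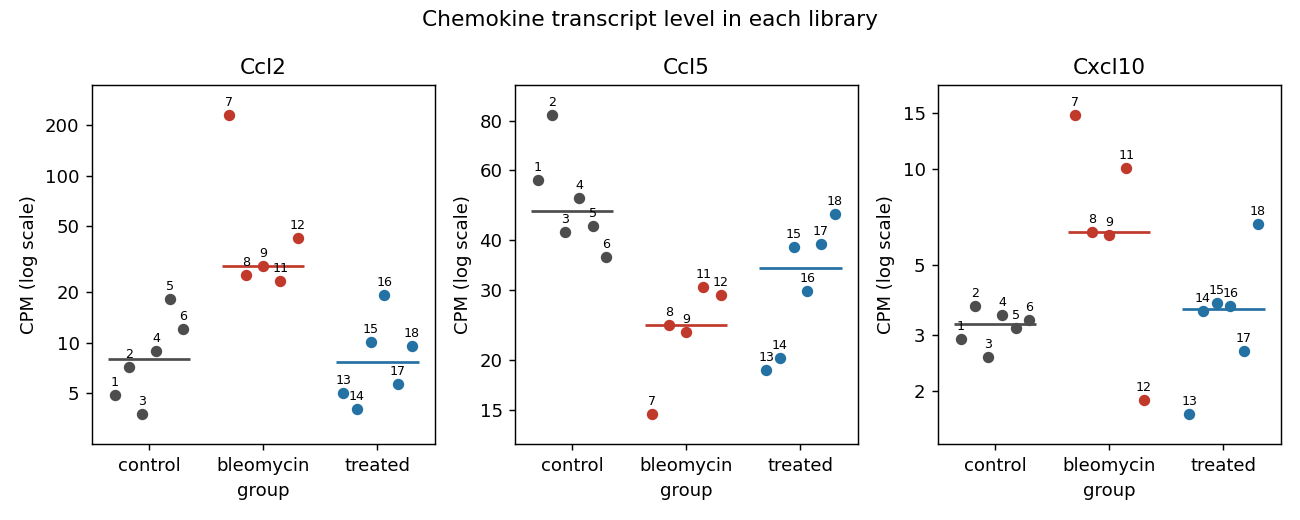
Transcript level (CPM, log scale) of Ccl2, Ccl5 and Cxcl10 in each of the 17 libraries by group, with the library number above each point and the group median as a line. All 5 bleomycin libraries lie above all controls for Ccl2 and below all controls for Ccl5, while for Cxcl10 bleomycin library 12 (1.88 CPM) lies below every control.

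Ccl2, the monocyte attractant, showed the largest differences of the 3 in both comparisons that involve the bleomycin group. In controls its level was lowest at 3.72, had a median of 8.02 and reached 18.3 CPM. Bleomycin libraries 7, 8, 9, 11 and 12 held 231, 25.3, 28.7, 23.3 and 42.1 CPM. All 5 lay above the highest control, and library 7 was far above the other 4. Treated libraries ranged from 3.99 to 19.2 CPM with a median of 7.60, so each lay below the lowest bleomycin library. Group ranges of this kind, with bleomycin above every control, were found for 9.6% of tested genes, and treated below every bleomycin library for 8.58%.

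Ccl2 rose 7.64-fold with bleomycin, from 9.17 ± 5.37 (SD, n = 6) to 70.0 ± 90.2 CPM (SD, n = 5), a log2 fold change of 2.93 (with an SE of 0.61 and an adjusted p of 0.0013 in edgeR). Among tested genes 70 had a larger log2 fold change, which placed Ccl2 at rank 71. In treated lungs, at 8.91 ± 5.63 CPM (SD, n = 6), it was 7.83-fold lower than with bleomycin (log2 fold change -2.97, with an SE of 0.62 and an adjusted p of 0.0031 in edgeR), rank 19 among the 15000 genes ordered from the most negative log2 fold change. The SD of the bleomycin group exceeded its mean, and the sizes of both differences rested in large part on library 7. Without that library the bleomycin mean was 29.8 ± 8.45 CPM (SD, n = 4). The rise was then 3.26-fold (log2 fold change 1.70, with an SE of 0.42 and an adjusted p of 0.00564 in edgeR, rank 268). The difference of treated from bleomycin was 3.34-fold (log2 fold change -1.74, edgeR adjusted p = 0.0104, rank 67). Those 2 ranks are among the 15107 genes that passed the filter in that fit. Ccl2 thus passed the test in both comparisons with and without the library, with smaller folds when it was left out.

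Treated and control lungs were not distinguishable in Ccl2. The log2 fold change was -0.035 (95% confidence interval -1.28 to 1.21, edgeR adjusted p = 0.982), an interval that spans from 0.413 to 2.31 times the control level. The order of levels was bleomycin above both other groups, with no resolved order between control and treated. The coefficient of variation was 58.5% in controls and 63.2% in treated lungs, where counting alone would give 8.01% and 8.52%.

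Ccl5, the T cell and monocyte attractant, went the other way. Control libraries 1 to 6 held 56.8, 82.7, 41.9, 51.0, 43.5 and 36.2 CPM. The bleomycin libraries held 14.6, 24.5, 23.5, 30.5 and 29.1 CPM, in the order 7, 8, 9, 11 and 12. Every bleomycin library was below the lowest control, a pattern found for 8.47% of tested genes. Library 7, the highest for Ccl2, was the lowest for Ccl5. Treated libraries 13 to 18 held 18.9, 20.2, 38.5, 29.8, 39.1 and 46.5 CPM, with 3 of 6 above all bleomycin libraries and 3 of 6 below all controls.

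The Ccl5 mean fell from 52.0 ± 16.7 (SD, n = 6) to 24.4 ± 6.25 CPM (SD, n = 5), a 2.13-fold difference (log2 fold change -1.09, with an SE of 0.26 and an adjusted p of 0.00311 in edgeR). The fall did not hinge on library 7: without it the log2 fold change was -0.95 (edgeR adjusted p = 0.0099). Treated lungs averaged 32.2 ± 11.1 CPM (SD, n = 6), between the other groups. Their difference from bleomycin did not pass the test (log2 fold change 0.40, 95% confidence interval -0.14 to 0.93, edgeR adjusted p = 0.253). Neither did their difference from control (log2 fold change -0.69, 95% confidence interval -1.20 to -0.19, edgeR adjusted p = 0.0815), although DESeq2 (adjusted p = 0.0392) and edgeR without treated library 18 (adjusted p = 0.0483) put it past the threshold. In the order control, treated, bleomycin, only the 2 ends were resolved. Ccl5 RNA is carried largely by lymphocytes in many tissues, and in bulk lung RNA fewer cells of a type and less RNA per cell cannot be told apart. Markers of those cells could not be read, since the other IDs carry no names here.

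Cxcl10, the interferon-induced ligand of CXCR3, was the least abundant in counts, with 25 to 226 reads per library. The stretch of 250 bases before its annotated start is shown because it holds matches to motifs of the transcription factors through which interferon and inflammatory signals are known to act on this gene. It lies at chr14:15988816-15989065 on the plus strand of the RefSeq assembly GRCr8, and of the 3 genes only Cxcl10 matched the promoter table. Capitals mark the motif matches.
Cxcl10: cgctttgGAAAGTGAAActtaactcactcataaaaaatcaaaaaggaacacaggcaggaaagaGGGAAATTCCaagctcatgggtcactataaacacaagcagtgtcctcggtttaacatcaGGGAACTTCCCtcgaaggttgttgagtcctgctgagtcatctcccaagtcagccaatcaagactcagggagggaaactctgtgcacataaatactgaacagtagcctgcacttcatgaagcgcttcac
The first run of capitals, 243 to 234 bases before the start, matches the interferon-stimulated response element, searched as GAAANNGAAA on both strands. The other runs match the NF-kB consensus on either strand, at 187 to 178 bases before the start, and as a pair of overlapping matches on opposite strands that span 128 to 118 bases before it. The interferon motif was found in 3.41% and the NF-kB motif in 6.33% of the 33469 promoter windows of this length. A match describes letters only, and the counts do not measure binding.

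In controls, Cxcl10 was even across libraries, at 2.92, 3.71, 2.56, 3.48, 3.16 and 3.34 CPM in libraries 1 to 6. Its coefficient of variation there was 12.9%, and counting alone would give 13.5%. Bleomycin libraries 7, 8, 9, 11 and 12 held 14.8, 6.34, 6.20, 10.1 and 1.88 CPM. With bleomycin the libraries thus fell apart, 4 of 5 above every control and library 12 below every control, and the coefficient of variation was 61.6%, where counting would give 9.08%. Treated libraries 13 to 18 held 1.69, 3.57, 3.79, 3.70, 2.67 and 6.73 CPM, of which 2 lay above and 1 below all controls, and library 13 below every bleomycin library.

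Cxcl10 rose 2.46-fold with bleomycin, from 3.19 ± 0.413 (SD, n = 6) to 7.86 ± 4.84 CPM (SD, n = 5), a log2 fold change of 1.30 (with an SE of 0.37 and an adjusted p of 0.0112 in edgeR). In treated lungs, at 3.69 ± 1.69 CPM (SD, n = 6), it was 2.12-fold lower than with bleomycin (log2 fold change -1.09, with an SE of 0.37 and an adjusted p of 0.037 in edgeR). Both calls depended on library 7, without which the log2 fold changes were 0.94 (edgeR adjusted p = 0.0511) and -0.73 (edgeR adjusted p = 0.143). The call in treated against bleomycin was also lost without bleomycin library 11 and without any 1 of the treated libraries 13 to 17. It was lost too with limma voom and when only those 2 groups were fitted. In these fits the edgeR or limma voom adjusted p was 0.0555 to 0.106. Without bleomycin library 12 both calls were kept, at log2 fold changes of 1.55 (edgeR adjusted p = 0.000935) and -1.34 (edgeR adjusted p = 0.00662). Exact permutation tests of mean log2 CPM, two-sided and adjusted over 9 tests, gave 0.0934 for bleomycin against control and 0.178 for treated against bleomycin. Treated lungs did not differ detectably from control in Cxcl10 (log2 fold change 0.21, 95% confidence interval -0.56 to 0.98, edgeR adjusted p = 0.79). By mean the order was bleomycin, treated, control, and treated and control were not resolved.

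**Figure D2:**
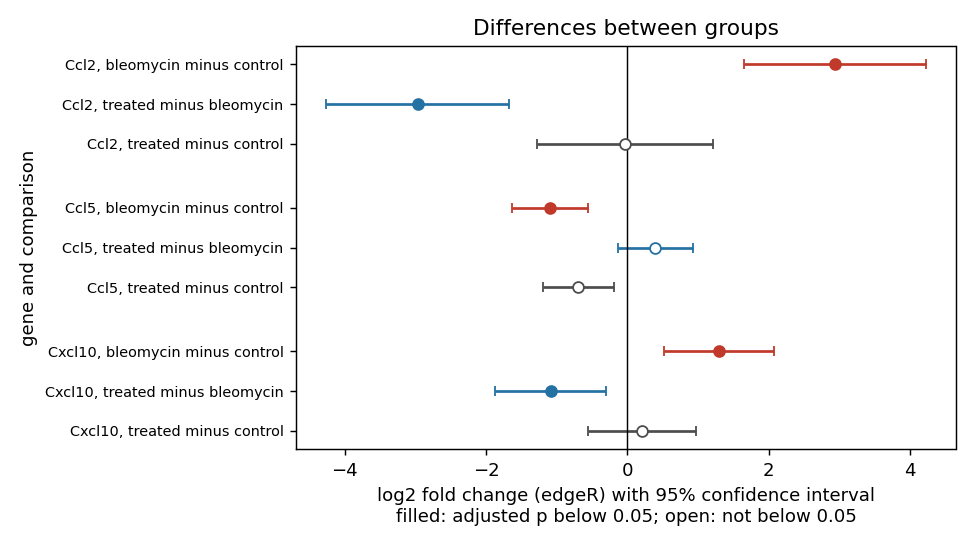
Log2 fold change of each chemokine in the 3 comparisons (horizontal axis, edgeR) with its 95% confidence interval, filled where the adjusted p was below 0.05. Ccl2 and Cxcl10 lie right of 0 for bleomycin against control and left of 0 for treated against bleomycin, and Ccl5 lies on the opposite side in both, with an open point at 0.40 for treated against bleomycin.

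**Figure D3:**
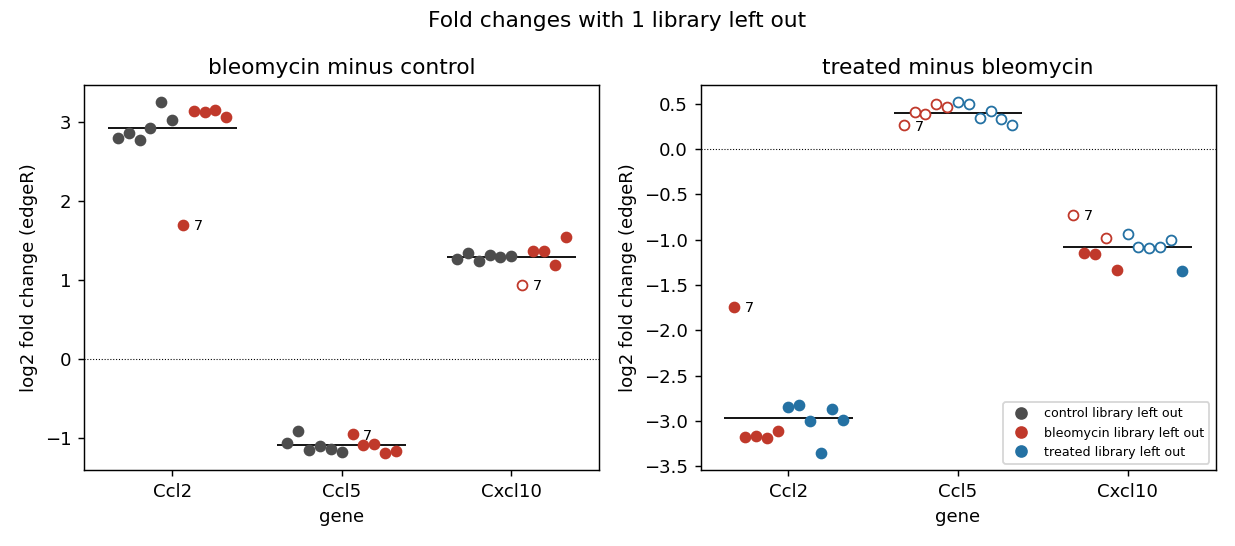
Log2 fold change (vertical axis, edgeR) of each chemokine with 1 library left out at a time, coloured by the group of that library, filled where the adjusted p was below 0.05, with the value from all libraries as a line. Leaving out bleomycin library 7 (marked 7) moved Ccl2 from 2.93 to 1.70 and from -2.97 to -1.74, and Cxcl10 from 1.30 to 0.94 and from -1.09 to -0.73.

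Whether the chemokines changed by different factors was tested on the ratio of their counts within each library, which is free of library scaling. The ratios carry the lengths of both transcripts, so only differences between groups are read from them. Mean log2 ratios were set against each other in exact permutation tests (two-sided, over libraries), adjusted over 9 tests (3 ratios in 3 comparisons). With all libraries in the test the smallest possible p is 0.00216, and leaving out a library can raise it.

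The balance of Ccl2 to Ccl5 separated bleomycin from both other groups. Its log2 ratio averaged -2.65 ± 1.04 (SD, n = 6) for control libraries, 0.89 ± 1.76 (SD, n = 5) for bleomycin libraries and -1.98 ± 0.74 (SD, n = 6) for treated libraries. Bleomycin libraries spanned -0.39 to 3.98, and all controls (-3.54 to -1.25) and treated libraries (-2.80 to -0.63) lay below them. The ratio was 11.6-fold higher with bleomycin than in controls (difference 3.54, exact permutation adjusted p = 0.0194) and 7.31-fold lower in treated than in bleomycin lungs (difference -2.87, exact permutation adjusted p = 0.0195). Without bleomycin library 7 these differences were 2.77 and -2.10, each with an exact permutation adjusted p of 0.039. Between treated and control lungs the difference was 0.67 (exact permutation adjusted p = 0.258). The separation of bleomycin from control libraries had to follow from the single genes. All 5 bleomycin libraries lay above every control for Ccl2 and below every control for Ccl5. For that comparison the ratio test gives a size but no separate support.

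The ratio of Ccl5 to Cxcl10 also differed between groups. Its log2 value averaged 3.97 ± 0.37 (SD, n = 6) for control libraries, 1.87 ± 1.40 (SD, n = 5) for bleomycin libraries and 3.15 ± 0.49 (SD, n = 6) for treated libraries. It was 4.28-fold lower with bleomycin than in controls (difference -2.10, exact permutation adjusted p = 0.026), although bleomycin library 12, at 3.93, lay inside the control range. In treated lungs it was 1.76-fold lower than in controls (difference -0.82, exact permutation adjusted p = 0.0292), with overlapping ranges. Neither gene alone passed the edgeR test in that comparison. The call with bleomycin was lost without control library 1, 2, 3, 4 or 6 (exact permutation adjusted p up to 0.0713). The call in treated against control was lost without control library 1, 2, 3 or 4 (exact permutation adjusted p up to 0.0648). In these runs the differences moved little, at -2.21 to -2.00 and -0.84 to -0.72. With 5 bleomycin and 5 control libraries the smallest possible p is larger than with all libraries. A call was still possible at that size: without control library 5 the call with bleomycin was kept (exact permutation adjusted p = 0.0428). Treated against bleomycin did not pass for this ratio (difference 1.28, exact permutation adjusted p = 0.0834). Without bleomycin library 7 it was 0.81 (exact permutation adjusted p = 0.184), and without library 12 it passed at 1.79 (exact permutation adjusted p = 0.0107). Bleomycin against control gave -1.62 without library 7 (exact permutation adjusted p = 0.0427) and -2.61 without library 12 (exact permutation adjusted p = 0.0107).

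For Ccl2 and Cxcl10, a change by different factors was not established with all libraries in the test and turned on single libraries. Their log2 ratio averaged 1.32 ± 0.75 (SD, n = 6) for control libraries, 2.76 ± 1.38 (SD, n = 5) for bleomycin libraries and 1.17 ± 0.79 (SD, n = 6) for treated libraries. The differences were 1.44 for bleomycin against control (exact permutation adjusted p = 0.0834) and -1.59 for treated against bleomycin (exact permutation adjusted p = 0.074). Without bleomycin library 11 both passed the threshold (exact permutation adjusted p = 0.0357 and 0.0322). The first also passed without control library 5 and the second without treated library 16, each with an exact permutation adjusted p of 0.0428. Without bleomycin library 7 the differences were smaller, at 1.14 and -1.29 (exact permutation adjusted p = 0.165 and 0.154). Without bleomycin library 12 they were 1.02 and -1.17 (exact permutation adjusted p = 0.159 and 0.136). Library 12 had the highest of these ratios (4.46), being second for Ccl2 and lowest for Cxcl10 within the bleomycin group.

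**Figure D4:**
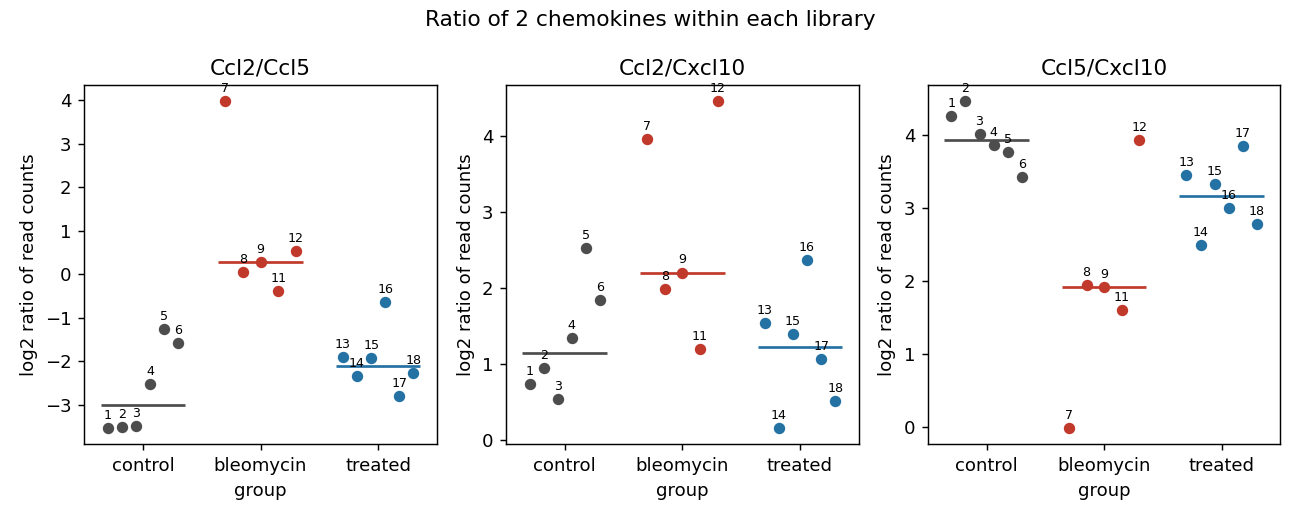
Log2 ratio of read counts of 2 chemokines within each library (vertical axis) by group, with library numbers above the points and group medians as lines. For Ccl2/Ccl5 the 5 bleomycin libraries (-0.39 to 3.98) lie above all others, and for the ratios that include Cxcl10 the groups overlap.

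Within groups, the libraries high for one chemokine were not always high for another. Among controls, library 5 was highest for Ccl2 and library 2 for both Ccl5 and Cxcl10. Among treated libraries, 16 was highest for Ccl2 and 18 for both Ccl5 and Cxcl10. None of the 6 within-group correlations of log2 CPM passed an exact permutation test, with an adjusted p from 0.432 to 0.607 for Pearson's r and from 0.503 to 0.658 for Spearman's rho. The highest was Ccl5 with Cxcl10 in treated lungs (r = 0.669, exact permutation p = 0.147, rho = 0.657, exact permutation p = 0.175, n = 6), and r was 0.531 without the 2 libraries farthest from the median of Ccl5. With the 2 libraries farthest from the median of Ccl2 left out, r in treated lungs was 0.867 for Ccl2 with Cxcl10 (0.455 with all 6). For Ccl2 with Ccl5 it was 0.719 (0.489 with all 6). In controls r of Ccl2 with Ccl5 was negative, at -0.623 with the 2 libraries farthest from the Ccl2 median left out (-0.271 with all 6). The other control pairs had a positive r. The libraries left out were not the same for Ccl2 and Ccl5, so these values set no order of the pairs. With 6 libraries per group, and fewer where 2 were left out, such correlations are poorly resolved. None was computed over the 5 bleomycin libraries.

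The genes most like each chemokine over the 17 libraries are given as a description, from log2 CPM. Ccl2 was most like ENSRNOG00000000239 (r = 0.938, and 0.887 after group means were removed). That gene averaged 4.33 ± 1.51 CPM (SD, n = 6) for control libraries, 42.6 ± 57.2 CPM (SD, n = 5) for bleomycin libraries and 6.45 ± 3.49 CPM (SD, n = 6) for treated libraries. Ccl5 was most like ENSRNOG00000017749 (r = 0.957, and 0.906 after group means were removed), which fell with bleomycin by a log2 fold change of -1.18 (edgeR adjusted p = 0.00161). Cxcl10 had no match of that closeness, the nearest being ENSRNOG00000007327 (r = 0.835, and 0.749 after group means were removed). A correlation of at least 0.8 was reached by 315 tested genes with Ccl2, 66 with Ccl5 and 7 with Cxcl10, and after group means were removed by 46, 23 and 2. Cxcl10 itself ranked 1506 among the genes most like Ccl2 (r = 0.644), and Ccl5 had a negative correlation with both Ccl2 (-0.502) and Cxcl10 (-0.299). Except where group means were removed, these correlations share the group differences. All of them share library 7, which of the 17 libraries was highest for Ccl2 and Cxcl10 and lowest for Ccl5.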

How the data were processed

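The authors deposited 1 table of raw read counts per Ensembl rat gene for 17 libraries, whose column names are the sample descriptions. Libraries were made with a TruSeq mRNA kit from column-purified RNA, per the labels' protocols. Per the submitters' processing notes, STAR 2.5.2 and 2.5.2b, featureCounts 1.5.1 and RSEM 1.3.0 were among the tools and Rnor_6.0 among the builds. Which tool made the counts, the annotation release and the strand setting are not stated in the sources used here, so reads of overlapping genes or close gene copies may have been shared or dropped.

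From these counts, genes were filtered with filterByExpr by group (15000 of 23083 genes with a count, 99.927% of counts), scaled by TMM and fitted with the quasi-likelihood model of edgeR 4.0.16 (R 4.3.3) to the 3 groups at once. P-values were adjusted by the Benjamini-Hochberg method over all tested genes, with a threshold of 0.05. SEs are the log2 fold change over the square root of F. Log2 CPM used a prior count of 2 and ratios an offset of 0.5 counts. Alternatives were RLE and upper quartile scaling, DESeq2 1.42.0, limma 3.58.1 (voom with quality weights), no filter, fits of 2 groups and leaving out libraries. A robust edgeR fit and permutation tests of log2 CPM were added after seeing the data. No 2 libraries of a group agreed within sampling noise (chi-square per degree of freedom of at least 11).

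The members, lists and rules were chosen with earlier results of these data known. All 3 members are described, and for each the tested gene with the highest Pearson correlation of log2 CPM over the 17 libraries is named by ID. Lists of receptors, other chemokines, interferon and NF-kB targets and cell type markers, set by symbol, were not run because 0 IDs could be matched to symbols, and the lung label was not checked against markers for the same reason. Promoter sequence is from RefSeq (GRCr8).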

Additional observations from a re-analysis of the deposited data

Results flagged for a closer look

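Among the 18 sets of library values examined (CPM and log2 ratios, each in 3 groups), 2 held a library far from the rest by Dixon's criterion, which chance alone meets in about 1 in 20 groups. Ccl2 reached 231 CPM in bleomycin library 7, while the next highest bleomycin library held 42.1 CPM, so that 0.909 of the group's range was gap. The log2 ratio of Ccl2 to Ccl5 was 3.98 in the same library, while the next was 0.53, so that 0.789 of the group's range was gap. The limit for 5 libraries is 0.71. Both flags concern 1 library and share the Ccl2 count, so they are not separate observations.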

How the results depend on the processing

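Ccl2 and Ccl5 in bleomycin against control and Ccl2 in treated against bleomycin kept direction and call under every alternative run. So did the ratio of Ccl2 to Ccl5 in both comparisons, which against control follows from the 2 single genes. With 1 library left out, the log2 fold change of Ccl2 ranged from 1.70 to 3.25 and from -3.35 to -1.74, and that of Ccl5 with bleomycin from -1.18 to -0.91. The size of the Ccl2 differences also moved with the method. Limma voom on all libraries gave log2 fold changes of 1.97 and -2.04 (3.91-fold and 4.11-fold).

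For Cxcl10 in treated against bleomycin, limma voom gave -0.73, the fit of 2 groups -1.08, leaving out treated libraries 13 and 17 together -0.82 and the permutation test -0.90, none with a call. With 1 library left out it ranged from -1.35 to -0.73. For Cxcl10 in bleomycin against control the permutation test gave 1.00, also without a call, and leaving out 1 library gave 0.94 to 1.55. For Ccl5 in treated against control DESeq2 gave -0.69 with a call, and leaving out 1 library gave -0.83 to -0.51. Differences of treated from control near 0 changed sign: Ccl2 was 0.23 without treated libraries 13 and 17 and ranged from -0.42 to 0.28 with 1 library left out, and Cxcl10 from -0.048 to 0.36.

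With 1 library left out, the ratio of Ccl5 to Cxcl10 ranged from -2.61 to -1.62 with bleomycin, 0.81 to 1.79 in treated against bleomycin and -0.96 to -0.68 in treated against control. The ratio of Ccl2 to Cxcl10 ranged from 1.02 to 1.83, -1.98 to -1.17 and -0.39 to 0.094. Genes called in treated against control were 1259, or 2546 with limma voom and 794 to 1216 with 1 library left out. Those in treated against bleomycin were 4163, or 1929 without treated libraries 13 and 17, where fewer libraries were fitted. Other causes were not tested. No paired analysis was possible because no replicate number occurs in more than 1 group. Cxcl10, at 25 to 226 counts per library, is the gene most limited by depth.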
